A study of Mus musculus with 6 samples.

Results

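The subcortical part of 6 coronal brain sections was compared between mice with human APOE4 and mice with human APOE3. It was taken as the spots that lie over tissue, hold at least 1000 UMIs and hold more UMIs of Slc17a6 than of Slc17a7. Slc17a6 and Slc17a7 code for the vesicular glutamate transporters that mark, in the main, neurons of the thalamus and hypothalamus and neurons of the cortex and hippocampus. The rule kept 2350 of the 14524 tissue spots with counts, or 16.2%. Visium is a spatial RNA method in which tissue lies on barcoded spots, each a small area with several cells, and a UMI stands for 1 captured molecule. Each genotype had 1 section in each of 3 conditions: E3 and E4 young mice of 3 months, E3 and E4 aged mice of 24 months, and E3 and E4 mice crossed to 5xFAD, aged 12 months. All mice were female, and in all of them the mouse Apoe coding region had been replaced by a human allele under the mouse promoter, so that the E3 and E4 lines were made separately and no section lacks a human allele. The 5xFAD transgenes hold mutant human APP, are driven in neurons by Thy1 cassettes and came from a line of mixed B6SJL background. Age, strain background and transgenes therefore cannot be told apart in 5xFAD, and DNA that came along with each targeted allele cannot be told apart from the allele. Each section came from the right hemisphere of 1 mouse, so the unit of every test is the section and not the spot.

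APOE is the main lipoprotein of the brain, made mostly by astrocytes, and hands cholesterol and other lipids to neurons and glia through receptors of the LDL receptor family. APOE4 is the common allele with the strongest link to late Alzheimer's disease, and its protein carries lipid less well than APOE3. The thalamus relays sensory and motor signals to the cortex, and the hypothalamus holds peptide neurons that control feeding, growth, reproduction and sleep. Both surround the third ventricle, which is lined by ciliated ependymal cells and holds choroid plexus, the tissue that makes cerebrospinal fluid.

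The 2350 spots were spread over all sections. E3 young held 484 of them, E4 young 448, E3 aged 333, E4 aged 451, E3 5xFAD 362 and E4 5xFAD 272. Their summed UMIs were 8061329, 7010587, 4772686, 6607495, 4864415 and 3476052 in the same order, with medians of 11692.5 to 16097.5 UMIs per spot. Spots were chosen by measured values of Slc17a6 and Slc17a7, which are given here as a description: 657 spots entered with 1 UMI more of Slc17a6, while 1469 spots had equal numbers of both, 833 of them with neither, and 1217 had 1 UMI more of Slc17a7. The tissue masks mark 16979 spots, of which 2455 had no counts, so that 75.9% to 99.9% of the masked area of a section was measured.

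Each spot was called thalamic or hypothalamic by the marker list with the higher mean z score. This gave 62.0%, 66.7% and 41.4% thalamic spots in E3 young, aged and 5xFAD and 39.7%, 62.5% and 73.5% in the E4 sections. The share of thalamic spots was thus lower in E4 in the young and aged pairs and higher in the 5xFAD pair (exact sign-flip test over the 3 pairs, two-sided p = 1, where the smallest possible p is 0.25). The calls rest on these markers, whose levels are a description. Tcf7l2, a transcription factor of thalamic neurons, stood at 506 to 634 CPM (counts scaled to the summed UMIs of a section's spots) in thalamic and 45.1 to 225 CPM in hypothalamic spots. Hap1, a huntingtin-binding protein rich in the hypothalamus, stood at 71.4 to 144 and 383 to 681 CPM. Of the 10% of spots richest in choroid plexus and ependymal markers, 79, 0 and 3 lay in E3 young, aged and 5xFAD and 12, 88 and 53 in the E4 sections. E4 thus held fewer such spots in the young pair and more in the aged and 5xFAD pairs.

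**Figure D1:**
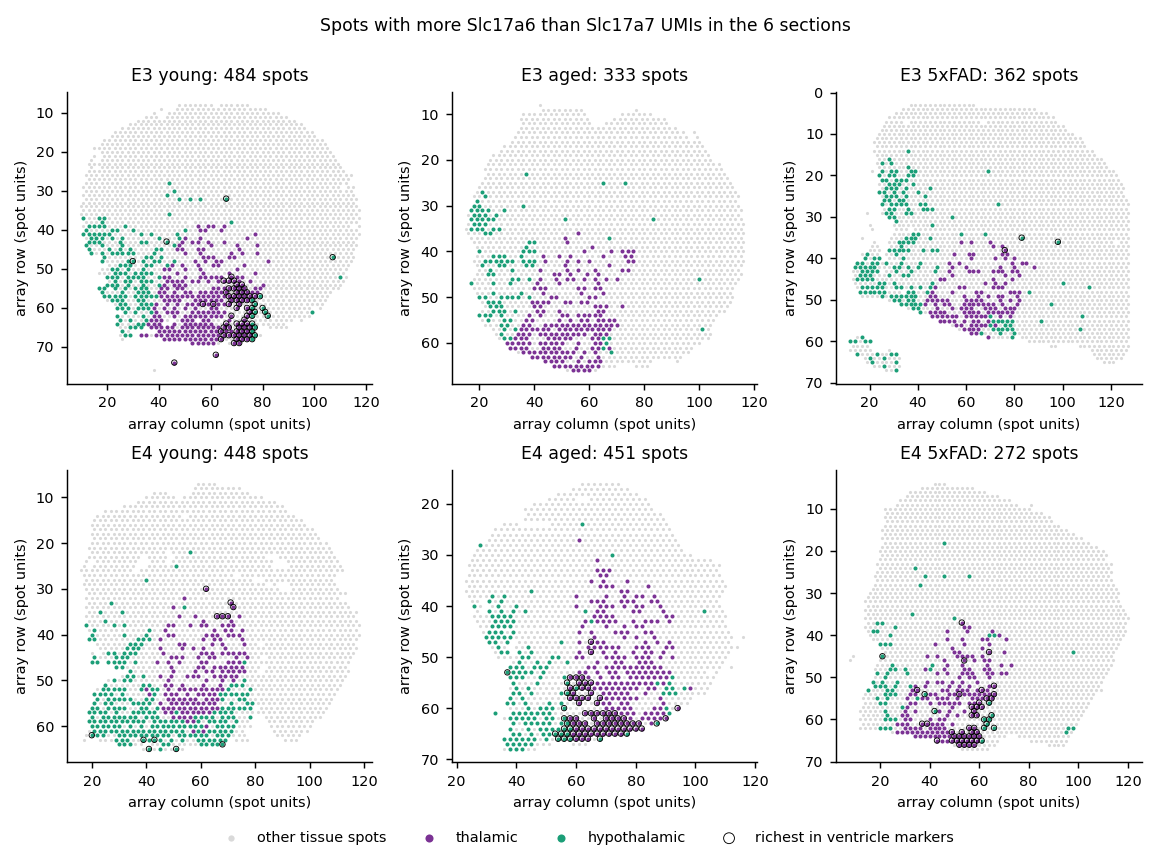
Each panel is 1 section and each point a tissue spot, placed by array column (x) and array row (y), counted in spots. Purple spots are thalamic and green ones hypothalamic by marker score, grey spots were not used, and black rings mark the tenth richest in choroid plexus and ependymal markers, of which E4 aged held 88 and E3 aged 0.

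The labels held in these spots. Human APP had 0 or 1 UMI in the young and aged sections, 138 in E3 5xFAD and 89 in E4 5xFAD. Human APOE stood at 871, 892 and 1105 CPM in E3 young, aged and 5xFAD and at 941, 1089 and 1337 CPM in the E4 sections, a log2 fold change of 0.25 ± 0.12 (SE) that did not pass the test. It was higher in E4 in each pair, by 0.11 to 0.29 on the log2 scale. Xist was found in every section and Ddx3y in none.

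E4 was set against E3 over the 3 conditions with condition as a block, to ask which genes differ by genotype on average over young, aged and 5xFAD brains. The test does not require the same direction in each pair. Of 13703 genes tested with edgeR's quasi-likelihood test, 1 passed an adjusted p of 0.05, which is 0.0073% of them. At an unadjusted p under 0.05, 277 genes (2.02%) were higher and 207 (1.51%, the called gene among them) lower in E4. The E4 value lay above the E3 value in all 3 pairs for 1423 genes (10.4%) and below it in all 3 for 1758 (12.8%). With TMM-scaled CPM these counts were 1737 and 1490, so which direction is the more frequent depends on the scale. The lowest E4 section lay above the highest E3 section for 533 genes (3.89%), and the highest E4 section below the lowest E3 section for 683 (4.98%). The same direction in all pairs is what defines the genes of interest here and is given as a description. Over all genes tested the median log2 fold change was 0.002. In sums over spots, fewer cells of a type and less RNA per cell cannot be told apart.

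The gene that passed was Gm47283 (ENSMUSG00000096768), a gene of unknown function annotated as protein coding at chrY:90784738-90816464 in mm10, near the end of chromosome Y in the part that pairs with chromosome X. It had 299, 336 and 518 UMIs in E3 young, aged and 5xFAD and 10, 14 and 1 UMIs in the E4 sections. Every E3 section was far above every E4 section. As CPM this was 71.3 ± 34.7 in E3 and 1.28 ± 0.92 in E4 (SD, n = 3 sections each), a log2 fold change of -5.42 ± 0.37 (SE, adjusted p = 0.0144), or 42.8-fold lower. Within pairs the log2 ratio was -4.70 in young (exact 95% interval -5.78 to -3.80), -5.05 in aged (-5.94 to -4.29) and -8.53 in 5xFAD (-13.84 to -6.05), where the intervals cover counting error only. It was found in 41.3%, 55.0% and 65.7% of the E3 spots and in 2.23%, 2.88% and 0.368% of the E4 spots. Both kinds of spot showed it, with 35.2 to 83.2 CPM in thalamic and 41.6 to 121 CPM in hypothalamic spots of E3 and at most 2.62 and 3.11 CPM in those of E4. Gm21860, annotated 30.2 kb away on chromosome Y, had 6, 2 and 8 UMIs in the E3 sections and 0 in each E4 section, too few to be tested. The call was lost when the E3 aged section was left out (adjusted p = 0.0789). Since the E3 and E4 lines were made separately, the allele and the line cannot be told apart for this gene.

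Because fewer than 10 genes passed, the 10 genes with a positive and the 10 with a negative fold change and the smallest p are described, as values that did not pass. The smallest adjusted p among them was 0.207. All 20 had the same direction in every pair, and the 3 E4 values did not overlap the 3 E3 values for 8 of the 10 higher and 10 of the 10 lower genes, beside 3.89% and 4.98% of all genes, and since they were picked by their p this supports nothing further.

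Among the higher genes, 4 lay on chromosome 7, 3 of them within 1 Mb of each other. Eps8l1, an actin regulator of the Eps8 family at chr7:4460674-4480487 (plus strand), had 3, 3 and 2 UMIs in the E3 sections and 70, 31 and 18 in the E4 sections. E4 was above E3 in each pair, at 4.69 to 9.98 CPM against 0.372 to 0.629 CPM, and the log2 fold change was 3.87 ± 0.46 (adjusted p = 0.231). Tnnt1, the slow-muscle troponin T and in the brain a marker of thalamic neurons, lies 43.9 kb further on at chr7:4504570-4516382 (minus strand). Its level was 39.7, 42.1 and 32.5 CPM in E3 young, aged and 5xFAD and 96.7, 75.4 and 75.7 CPM in the E4 sections, without overlap. That is a log2 fold change of 1.14 ± 0.13 (adjusted p = 0.207), or 2.20-fold. Tnnt1 is one of the markers by which spots were called thalamic, so that its levels within thalamic or hypothalamic spots are not independent of that call. Gm15510, an antisense RNA at chr7:5046949-5057116 on the minus strand, had 0, 0 and 1 UMI in E3 and 21, 12 and 4 UMIs in E4. On the other side, Rdh13, a retinol dehydrogenase of mitochondria that lies 35.9 kb from the start of Eps8l1, was lower in E4, with 34.9, 30.6 and 27.3 CPM in E3 against 15.8, 17.7 and 17.8 CPM in E4 (log2 fold change -0.84 ± 0.14). Eps8l1 and Tnnt1 passed with DESeq2 (adjusted p = 0.00453 and 0.000490), which called 4 genes, and Eps8l1 passed edgeR's test with hypothalamic spots alone (adjusted p = 0.0177).

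The region around Eps8l1 was looked at after these values were seen. Of 43 genes tested within 1 Mb of it, 9 had an unadjusted p under 0.05, 6 higher and 3 lower in E4, beside 2.02% and 1.51% of all genes. Eps8l1, Tnnt1, Gm15510 and Rdh13 are among the 9 and led to the choice of this region. The excess over these shares is therefore in part set by that choice. The others were Tsen34, a subunit of the tRNA splicing endonuclease, at 0.47 ± 0.10, Ube2s, a ubiquitin-conjugating enzyme of mitosis, at 0.38 ± 0.11, the antisense RNA 9430041J12Rik at 1.14 ± 0.48, Shisa7, a subunit that binds GABA receptors, at -0.37 ± 0.13, and Isoc2a at -0.43 ± 0.17 (log2 fold changes). The 34 other genes tested there were not under that level. Apoe, the locus that was replaced, lies on the same chromosome, 15.2 Mb from Eps8l1. Within 1 Mb of Apoe, 0 of 39 genes tested were under an unadjusted p of 0.05. Within 20 Mb, which takes in Eps8l1, 25 of 343 (7.29%) were, 14 higher and 11 lower, beside 2.02% and 1.51% of all genes. Of these 25, 12 lie within 5 Mb of Eps8l1. Mia, a small secreted protein of cartilage and melanoma cells, and Alkbh6, of the AlkB family of oxygenases, lie on chromosome 7 too, 7.48 and 10.6 Mb from Apoe. Mia stood at 2.85, 1.26 and 0.822 CPM in E3 and 11.1, 8.17 and 4.89 CPM in E4, and Alkbh6 at 51.0, 56.2 and 65.6 CPM in E3 and 38.4, 37.8 and 41.7 CPM in E4. Of the called gene and the 20 genes of smallest p, chromosome 7 held 6 and chromosome 12 held 4, against 7.58% and 3.67% of all genes tested. These chromosomes stand out less at an unadjusted p under 0.05. Chromosome 9 had 4.63% of its tested genes under that level, chromosome 7 had 4.52% and chromosome 12 had 3.98%. The higher genes Gm19935 and 2410004P03Rik had log2 fold changes of 1.51 ± 0.26 and 2.11 ± 0.45.

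**Figure D2:**
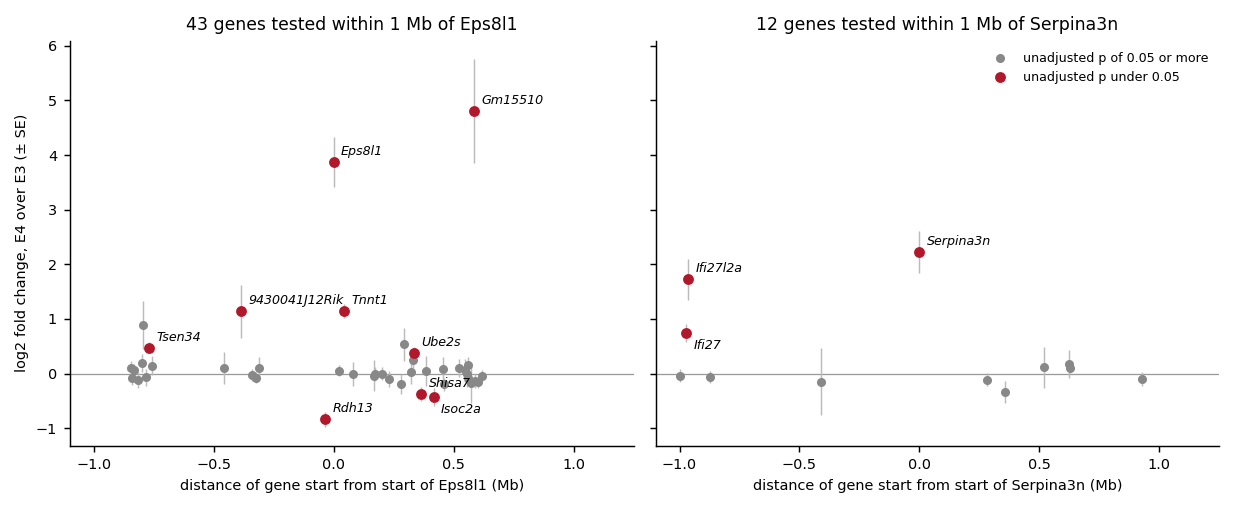
Log2 fold changes of E4 over E3 (points, with SE) are drawn for genes within 1 Mb of Eps8l1 (43 genes) and of Serpina3n (12 genes), by the distance of their starts in Mb. Red points had an unadjusted p under 0.05, and most neighbours lie near 0.

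Serpina3n, a secreted protease inhibitor that reactive astrocytes and oligodendrocytes make, was higher in E4 in each pair. Its level was 8.06, 33.9 and 86.5 CPM in E3 young, aged and 5xFAD and 98.1, 143 and 207 CPM in the E4 sections, so that even E4 young lay above E3 5xFAD. The log2 ratio was 3.61 in the young pair (3.24 to 3.995), 2.07 in the aged pair (1.83 to 2.32) and 1.26 in the 5xFAD pair (1.09 to 1.44). These intervals do not overlap, so the ratio differed between the pairs beyond counting error. Over all pairs the log2 fold change was 2.22 ± 0.39 (adjusted p = 0.723). With hypothalamic spots alone, where E3 held 15.1 to 57.2 and E4 114 to 198 CPM, it passed the test (adjusted p = 0.00256). For every test of hypothalamic spots alone, E4 5xFAD gave 72 spots and 723159 UMIs, against 1730668 to 4334050 UMIs in the other sections. Serpina3n also passed when either young or either 5xFAD section was left out, with log2 fold changes of 1.64 to 2.78, and not when either aged section was. Such a fit rests on fewer pairs than the main one. Without E3 young or E4 young it called 75 or 117 genes in all, so these passes are not stronger support. In thalamic spots the 5xFAD pair stood at 137 and 226 CPM and the young pair at 5.10 and 72.9 CPM. The Serpina3 family has many near-identical copies beside each other on chromosome 12, which could share reads.

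The reactive astrocyte list had a median log2 fold change of 0.05, far below the value of Serpina3n. Of its 31 genes, 20 were tested and 0 passed. At an unadjusted p under 0.05, 5 were higher and 1 lower, beside 2.02% and 1.51% of all genes. Gfap, the intermediate filament of reactive astrocytes, stood at 26.4, 61.0 and 135 CPM in E3 and 31.4, 64.9 and 294 CPM in E4, so the genotypes differed mainly in the 5xFAD pair (log2 ratios of 0.25, 0.09 and 1.12). Vim, its partner filament, had a log2 fold change of 0.40 ± 0.14. C4b, a complement gene that reactive astrocytes and oligodendrocytes make, stood at 10.9, 30.6 and 60.2 CPM in E3 and 10.8, 34.4 and 123 CPM in E4. For both Gfap and C4b the E4 and E3 values overlapped across conditions. Of the homeostatic astrocyte genes, 29 were tested, with a median of 0.09. At an unadjusted p under 0.05, 4 were higher and 0 lower, again beside 2.02% and 1.51% of all genes. Gfap is in both astrocyte lists and is 1 of these 4. Id3, a helix-loop-helix inhibitor, F3, the tissue factor, and S100b, a calcium-binding protein, had log2 fold changes of 0.53 ± 0.19, 0.32 ± 0.12 and 0.29 ± 0.11.

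Of the interferon-stimulated genes, which cells turn on against viruses, 32 were tested. Of these, 7 were higher and 0 lower in E4 at an unadjusted p under 0.05, beside 2.02% and 1.51% of all genes, and 0 passed (smallest adjusted p = 0.893). Its members had a median log2 fold change of 0.22, against 0.002 for all genes. Bst2, which tethers enveloped viruses to the cell surface, stood at 3.35, 4.82 and 7.20 CPM in E3 young, aged and 5xFAD and 5.42, 18.2 and 19.6 CPM in the E4 sections. Its E4 young value lay below E3 5xFAD, so the groups overlapped, and the log2 fold change was 1.40 ± 0.26. Ifi27l2a, a small interferon-induced membrane protein, stood at 2.61, 3.14 and 12.1 CPM in E3 and 3.57, 25.1 and 34.2 CPM in E4. Thus its genotype ratio was small in the young pair (log2 ratio 0.45) and larger in the aged and 5xFAD pairs (3.00 and 1.497). The related Ifi27 had a log2 fold change of 0.75 ± 0.16, and Ifitm3, which hinders the entry of viruses into cells, of 0.53 ± 0.13, with 15.6 to 18.4 CPM in E3 and 20.3 to 26.9 CPM in E4 and no overlap. Ifi27 and Ifi27l2a lie 0.973 and 0.965 Mb from Serpina3n on chromosome 12. Of the 12 genes tested within 1 Mb of Serpina3n, these 3 were the ones with an unadjusted p under 0.05. That window was placed after the value of Serpina3n was seen. Removal of the spots richest in ventricle markers lowered the log2 fold change of Ifi27 to 0.37 ± 0.20, that of Bst2 to 0.96 ± 0.28, that of Ifitm3 to 0.32 ± 0.15 and that of Ifi27l2a to 1.43 ± 0.30, and 4 genes of the list were then higher at an unadjusted p under 0.05.

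Type I interferons act through a complex of STAT proteins and IRF9 that binds an element with 2 copies of GAAA. The promoters of Bst2 and Ifitm3 are shown because they hold that element and their genes were among those with the smallest p of the list. They are taken from RefSeq (GRCm38.p6, the assembly of mm10), run 5′ to 3′ on the gene's strand from 250 bases before to 50 after the start, and have matches to GAAANNGAAA or its reverse complement in capitals.
Bst2 (chr8:71537423-71537722, minus strand): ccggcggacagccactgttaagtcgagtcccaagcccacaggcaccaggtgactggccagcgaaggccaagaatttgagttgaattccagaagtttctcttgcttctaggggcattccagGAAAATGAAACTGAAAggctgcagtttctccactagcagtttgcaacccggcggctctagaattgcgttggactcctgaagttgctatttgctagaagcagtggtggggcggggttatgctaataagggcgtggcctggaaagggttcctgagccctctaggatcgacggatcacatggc
Ifitm3 (chr7:141010695-141010994, minus strand): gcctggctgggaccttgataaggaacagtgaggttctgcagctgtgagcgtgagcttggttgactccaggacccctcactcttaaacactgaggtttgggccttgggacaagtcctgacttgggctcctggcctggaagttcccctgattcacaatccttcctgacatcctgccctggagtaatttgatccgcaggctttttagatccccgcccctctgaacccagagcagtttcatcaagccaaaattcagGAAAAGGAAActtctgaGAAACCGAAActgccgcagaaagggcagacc
Each holds 2 matches, which overlap in Bst2. Of the 32 interferon genes tested, 25 had a promoter in the table and 16 of these (64.0%) held a match in any listed promoter, against 3.99% of all 27025 genes in the table and 3.44% of its 32851 promoters. Ifi27, Ifi27l2a and Gm47283 are named only. Lgals3bp, Serpina3n and Tnnt1 had no match in this window, and Eps8l1 had one in 1 of its 3 listed promoters. A match is a description of the letters only.

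Of the disease-associated microglia genes, a set that microglia turn on around amyloid, 39 were tested, 5 were higher and 0 lower at an unadjusted p under 0.05, 13 were higher in all 3 pairs, and 0 passed. All genes had 2.02% higher at that level and 10.4% higher in all pairs. The list's median was 0.13. Cd9 and Cd63, tetraspanins of the cell surface and lysosome, had log2 fold changes of 0.44 ± 0.11 and 0.41 ± 0.11. Lgals3, a galectin that marks damaged lysosomes, stood at 1.86, 3.14 and 5.14 CPM in E3 and 2.85, 6.36 and 11.2 CPM in E4, and Gpnmb, a glycoprotein of lipid-laden macrophages, at 0.868, 1.47 and 18.1 CPM and 1.85, 2.42 and 30.8 CPM. Both were higher in E4 in each pair, and for both the E3 and E4 values overlapped across conditions. The median was -0.11 in thalamic spots alone, 0.11 in hypothalamic spots alone and 0.18 without the spots richest in ventricle markers, where 6 were higher and 0 lower. Cst7, an inhibitor of lysosomal proteases and the leading gene of the amyloid response, had 2, 6 and 293 UMIs in E3 and 0, 10 and 294 in E4. Scaled to the summed UMIs, this was 0.248, 1.26 and 60.2 CPM in E3 and 0, 1.51 and 84.6 CPM in E4. Homeostatic microglia genes had a median of -0.01, with 0 of 15 tested under an unadjusted p of 0.05. Selplg, a P-selectin ligand, P2ry13, a nucleotide receptor, and Cx3cr1, the fractalkine receptor, had log2 fold changes of -0.17 ± 0.11, -0.32 ± 0.22 and -0.18 ± 0.16. These were named for their small p, and the members of the list ran from -0.32 to 0.18. The summed level of the list was higher in E4 in each pair. It was 3955, 3844 and 5046 CPM in E3 young, aged and 5xFAD and 4313, 4059 and 5406 CPM in the E4 sections. In the MHC class I list 0 of 21 were under an unadjusted p of 0.05 (median 0.06), with H2-K1 at 0.21 ± 0.11, H2-D1 at 0.19 ± 0.10 and their light chain B2m at 0.19 ± 0.10. H2-T22 of the same list went the other way, at -0.30 ± 0.18. Complement genes had 1 of 14, C4b, and a median of 0.11, with C3ar1, the receptor of C3a, at 0.63 ± 0.29.

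The genes lower in E4 were of many kinds. Wdfy1, a protein that binds lipid on endosomes, stood at 39.1, 41.3 and 46.0 CPM in E3 young, aged and 5xFAD and 9.84, 13.5 and 31.4 CPM in the E4 sections. All E4 sections lay below all E3 sections, and the log2 ratio was -1.99 in young, -1.62 in aged and -0.55 in 5xFAD. Rell1, a membrane protein that binds TNF receptors, stood at 19.8, 20.1 and 13.8 CPM in E3 and 7.27, 9.08 and 7.77 CPM in E4 (log2 fold change -1.14 ± 0.17). Oxtr, the oxytocin receptor, had 37, 23 and 56 UMIs in E3 and 13, 15 and 14 in E4 (-1.28 ± 0.28). Vipr2, a receptor for vasoactive intestinal peptide and one of the thalamus markers, stood at 14.8 to 19.6 CPM in E3 and 8.32 to 11.2 CPM in E4 (-0.78 ± 0.17). Ulk2, a kinase that starts autophagy, Mpv17l, a membrane protein of peroxisomes and mitochondria, Abhd12b, of the hydrolase family, and Vopp1 had log2 fold changes of -0.60 ± 0.14, -0.56 ± 0.11, -0.80 ± 0.13 and -0.47 ± 0.11. Wdfy1 passed with DESeq2 (adjusted p = 0.0129).

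**Figure D3:**
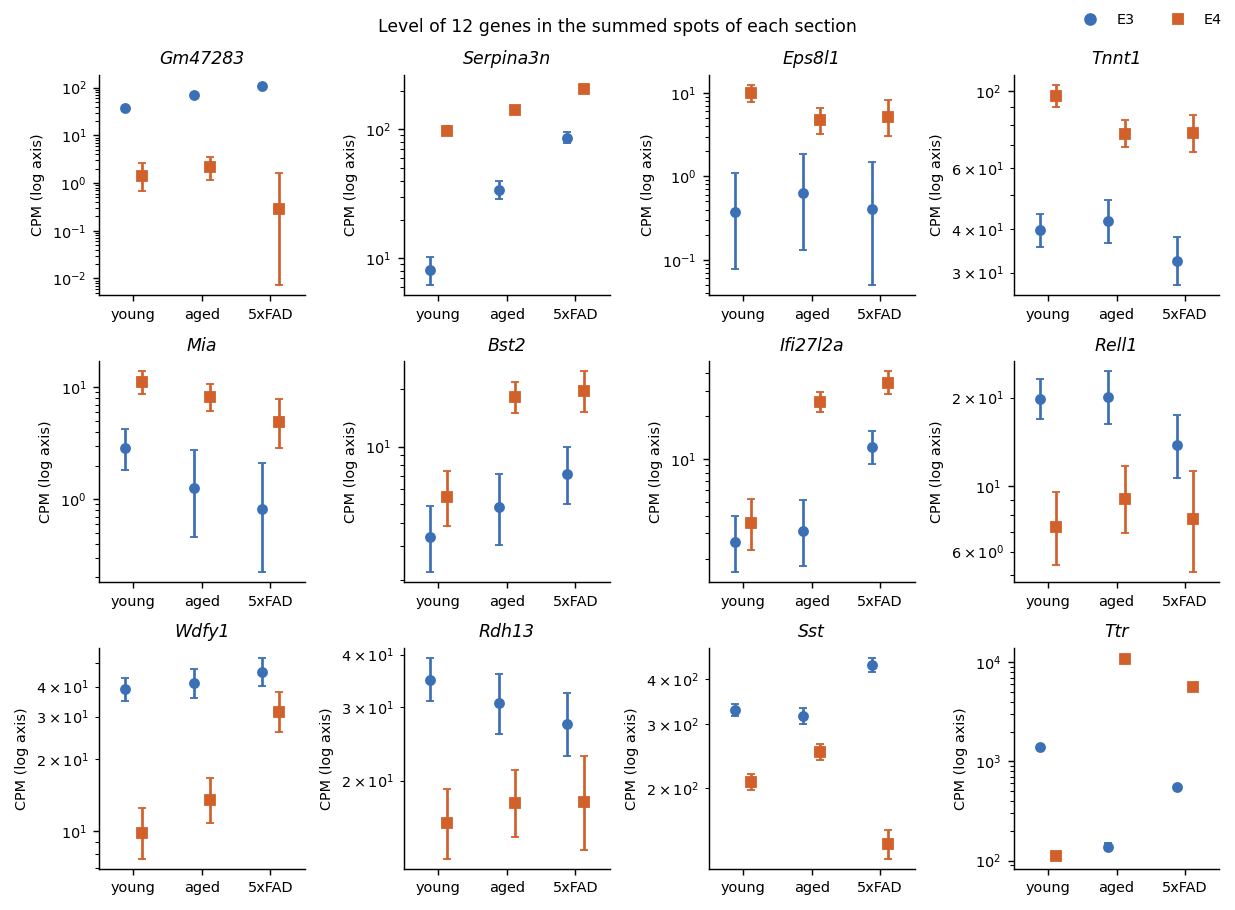
Levels of 12 genes (CPM of the summed spots, log axis) are drawn for E3 (circles) and E4 (squares) in each condition, 1 section per point, with exact 95% Poisson bars for counting error. Gm47283 lies lower in every E4 section, Serpina3n higher, and Ttr changes sides between the young pair and the others.

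The thalamus list had a median of -0.21. Of 22 genes tested in it, 2 were higher and 3 lower at an unadjusted p under 0.05, beside 2.02% and 1.51% of all genes. By pair, the median of the thalamus list was -0.89 in young, -0.23 in aged and 0.42 in 5xFAD (log2 ratios). The calls of thalamic spots were made from these markers, so that these medians and the thalamic shares are not independent. Prkcd, a kinase of thalamic relay neurons, had a log2 fold change of -0.35 ± 0.14, and Zfhx3, a homeobox factor, of -0.31 ± 0.11. In the hypothalamus and zona incerta list 0 of 29 were higher and 1 lower, beside the same shares of all genes. Its medians by pair ran the other way, at 0.43, 0.20 and -1.16. Esr1, the estrogen receptor, was the lower gene, at -1.17 ± 0.44. Of the hypothalamic peptides 22 were tested, with a median of -0.19. At that level 0 were higher and 2 lower, beside the same shares of all genes. Sst, which codes for somatostatin, stood at 329, 317 and 437 CPM in E3 and 209, 252 and 140 CPM in E4, with no overlap, and had a log2 fold change of -0.84 ± 0.24. It passed with hypothalamic spots alone and with equal numbers of thalamic and hypothalamic spots per section, at -1.20 ± 0.17 in the former (adjusted p = 0.0210). Ghrh, the growth hormone releasing hormone of the arcuate nucleus, stood at 23.1, 7.75 and 60.9 CPM in E3 and 1.71, 11.8 and 1.73 CPM in E4, with the aged pair on the other side. Hcrt, the orexin of the lateral hypothalamus, stood at 214, 462 and 1130 CPM in E3 and 18.1, 720 and 1.15 CPM in E4. In hypothalamic spots alone Ghrh had a log2 fold change of -2.25 ± 0.60 and Hcrt one of -3.55 ± 1.05, and with equal spot numbers these were -1.34 ± 0.70 and -3.35 ± 1.28, none of which passed.

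Of the synaptic vesicle genes 0 of 30 were under an unadjusted p of 0.05 (median -0.13), with Sv2c, a vesicle glycoprotein, at -0.59 ± 0.26 and Rims1, of the release site, at -0.34 ± 0.16. Of the glutamate and GABA receptor subunits 0 of 41 were higher and 2 lower (median -0.09), beside 2.02% and 1.51% of all genes. The lower genes were Gabrb1 at -0.31 ± 0.11 and Gabra2 at -0.28 ± 0.11, both subunits of the GABA-A receptor. Among genes of cholesterol synthesis 0 of 28 were under that level, the median was -0.11, and 4 had all E4 values below all E3 values, beside 4.98% of all genes: Srebf2, the factor that turns the pathway on, Cyp46a1, which makes 24-hydroxycholesterol, Dhcr7 and Sqle. Their log2 fold changes were -0.26 ± 0.11, -0.27 ± 0.12, -0.22 ± 0.11 and -0.17 ± 0.10. The median log2 ratio of the whole list was -0.28 in the young pair, -0.12 in the aged pair and 0.10 in the 5xFAD pair. Among APOE receptors and lipoprotein transport genes 0 of 31 were under that level, with a median of 0.05. Abca1, which loads lipid onto APOE, had a log2 fold change of 0.29 ± 0.13, and UMIs that were assigned to mouse Apoe one of 0.25 ± 0.12. In the myelin list 7 of 31 were higher and 0 lower, beside 2.02% and 1.51% of all genes, 14 were higher in all 3 pairs, beside 10.4%, 0 passed, and the median was 0.19. Bcas1, of early myelinating oligodendrocytes, stood at 102, 98.1 and 69.5 CPM in E3 and 116, 128 and 104 CPM in E4. Cryab, a small heat shock protein, Gsn, which cuts actin, and Opalin, a myelin membrane protein, had log2 fold changes of 0.37 ± 0.12, 0.39 ± 0.13 and 0.46 ± 0.15. The summed level of the myelin list was 5714 to 8267 CPM in E3 and 8187 to 9062 CPM in E4. E4 was above E3 in each pair, while the groups overlapped across conditions.

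Ventricle genes had the largest medians of the 17 lists described. The choroid plexus list had 7 of 14 higher and 0 lower at an unadjusted p under 0.05, beside 2.02% and 1.51% of all genes. Its median was 1.89 and 0 passed. Of the 14, 2 were higher in all 3 pairs, beside 10.4% of all genes. Ttr, which codes for the thyroid hormone carrier transthyretin and is the most abundant choroid plexus RNA, stood at 1388, 139 and 548 CPM in E3 and 112, 10856 and 5608 CPM in E4. E4 was thus lower in the young pair and higher in the other pairs, and the spots rich in ventricle markers were picked by Ttr and the rest of this list, so that their number and its level are not independent. The list's median log2 ratio by pair was -0.76, 4.34 and 2.15. The ependymal list had 7 of 12 higher and 0 lower at an unadjusted p under 0.05, beside the same 2.02% and 1.51%. Its median was 0.93, with positive medians in every pair (1.52, 0.57 and 0.88). Tmem212, a membrane protein of ependymal cells, stood at 2.98, 0.838 and 0.617 CPM in E3 and 14.3, 2.42 and 3.74 CPM in E4, and Dynlrb2, a dynein chain of cilia, at 2.11, 1.26 and 0.411 CPM in E3 and 9.41, 4.09 and 3.45 CPM in E4. Otx2, a homeobox factor, Calml4, a calmodulin-like protein of brush borders, and Sostdc1, which inhibits Wnt and BMP signals, had log2 fold changes of 1.97 ± 0.44, 1.98 ± 0.55 and 1.91 ± 0.75. Rsph1 and Ccdc153, genes of motile cilia, had 1.04 ± 0.26 and 1.26 ± 0.33. Removing spots picked by these markers lowers them by construction. Without those spots, the choroid plexus median was 0.28 and the ependymal median 0.31, Dynlrb2 had 2.01 ± 0.52 and Mia 1.61 ± 0.42, and Gm47283 still passed (-5.46 ± 0.40, adjusted p = 0.0214). Serpina3n, Eps8l1 and Tnnt1 then had log2 fold changes of 2.25 ± 0.35, 3.71 ± 0.43 and 1.02 ± 0.13. Leaving out the E3 young section gave 75 calls of 13927 genes. Leaving out E4 young gave 117 of 13849, which held all 75. Of the 75, 12 were choroid plexus markers, a list of 14 genes.

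**Figure D4:**
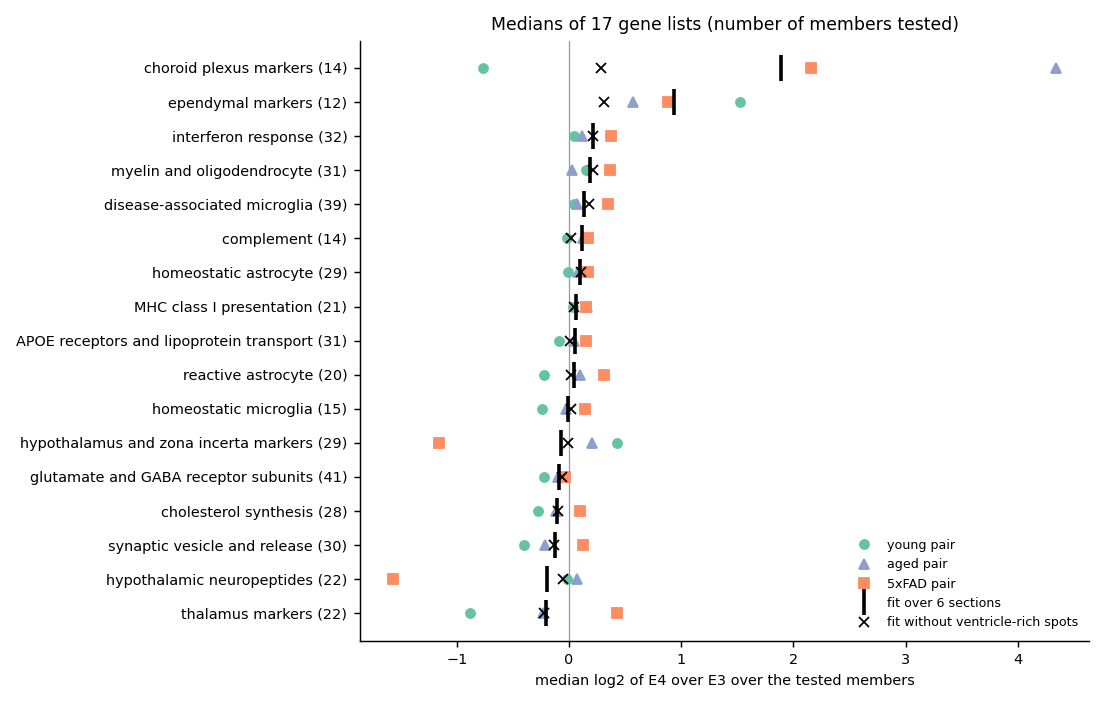
For 17 gene lists, the median log2 of E4 over E3 over the members tested is drawn for each pair (coloured symbols), for the fit over 6 sections (black bars) and for the fit without the spots richest in ventricle markers (crosses). The choroid plexus and ependymal bars lie at 1.89 and 0.93 and their crosses at 0.28 and 0.31, while the bars of the other lists lie between -0.21 and 0.22.

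The same sections hold 9515 spots with more Slc17a7 than Slc17a6, mainly cortex and hippocampus, and these were used to ask whether the genotype difference was particular to the subcortical spots. The sums of both spot classes were fitted together with section as a block. No difference passed: 0 of 15121 genes (0%) had an adjusted p under 0.05, the smallest being 0.280, and 503 (3.33%) had an unadjusted p under 0.05. In the Slc17a7-rich spots 2 of 16132 genes passed on their own, Gm47283 at -4.96 ± 0.26 (adjusted p = 0.00718) and Eps8l1 at 4.04 ± 0.25 (adjusted p = 0.0109). All 21 genes had the same sign there, and 10 of them had an unadjusted p under 0.05 for the difference between the classes, none of which passed. Gm47283 differed between the classes by -0.36 ± 0.55, Eps8l1 by -0.17 ± 0.57, Serpina3n by 0.28 ± 0.20 and Wdfy1 by -0.04 ± 0.14 on the log2 scale. Tnnt1 was at 0.68 in the Slc17a7-rich spots, with a difference of 0.45 ± 0.20. Larger differences, each in the direction of a stronger effect in the subcortical spots, were found for Mia (2.28 ± 0.32), Dynlrb2 (1.87 ± 0.34), 2410004P03Rik (1.83 ± 0.50), Tmem212 (1.75 ± 0.39), Gm19935 (1.21 ± 0.33), Oxtr (-0.99 ± 0.29), Bst2 (0.86 ± 0.21), Rell1 (-0.74 ± 0.24), Vopp1 (-0.32 ± 0.11) and Mpv17l (-0.31 ± 0.13). Sst had -0.03 in the Slc17a7-rich spots and differed by -0.82 ± 0.14, which did not pass (adjusted p = 0.623). With no filter on low counts the differences of Sst and Mia passed, and that of Sst passed without either young section. The 21 genes were picked by their p in the subcortical spots, a choice that by itself favours a weaker effect in the other spots. The direction and number of the differences named therefore do not show that an effect is particular to the subcortical spots. Both classes come from the same 6 mice, so they are not independent of each other.

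**Figure D5:**
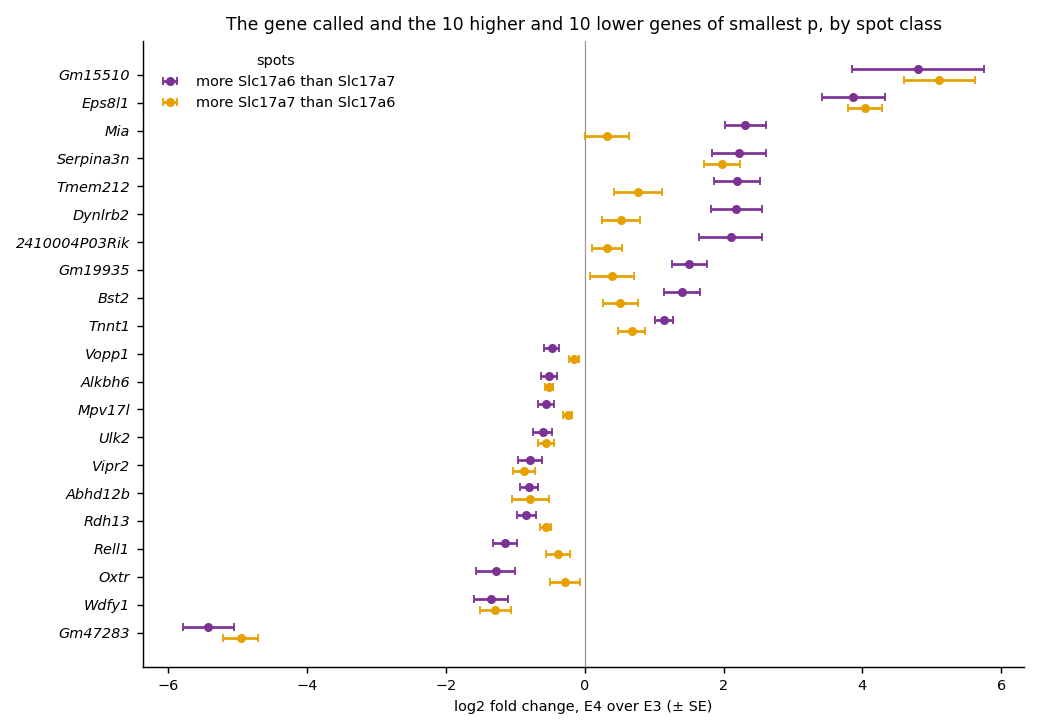
Log2 fold changes of E4 over E3 (points, with SE) of the gene called and the 10 higher and 10 lower genes of smallest p are drawn for subcortical spots (purple) and spots with more Slc17a7 (yellow). Gm47283, Eps8l1, Serpina3n and Wdfy1 lie at like values in both, while Mia, Tmem212 and Dynlrb2 are nearer 0 in the Slc17a7-rich spots.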

How the data were processed

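Spatial RNA was measured in 6 Visium sections, 1 per group, from 1 mouse each. The deposited values are UMI counts per gene and spot. The authors aligned reads with Space Ranger 1.3.0 and STAR 2.5.1b per the submitters' processing notes, whereas the matrix headers name Space Ranger 2.0.0 for E3 5xFAD and 1.2.2 for the other 5 sections. That version difference lies inside the 5xFAD pair and its part in the results was not tested. Coordinates are mm10.

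Counts were summed over the chosen spots of each section and tested with edgeR 4.0.16 (quasi-likelihood, TMM, filterByExpr, condition as block, Benjamini-Hochberg adjusted p of 0.05) in R 4.3.3, with DESeq2 1.42.0 as an alternative. The fit leaves 2 residual degrees of freedom. The p-values rest on the spread between single sections and on a prior for that spread shared over genes (median prior degrees of freedom 5.31). Within pairs, log2 ratios carry exact Clopper-Pearson 95% intervals, which cover counting error only. The code of the test was also run on simulated counts, and no value from that run is used here. Of the human genes, only APOE and APP were used. Spot barcodes mark fixed array positions, so that 1483 are found in all sections without sharing cells.

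The spot rule, the gene lists and the choice of comparison were made with earlier results of these data known. Genes named are those called, the 10 higher and 10 lower genes with the smallest p, 2 to 4 of the members with the smallest p of each list described, checks of the labels, and Serpina3n, Gfap and C4b. Genes near Eps8l1 and Serpina3n, the promoters, and Ttr, Hap1, Tcf7l2, Cst7, Xist, Ddx3y and Gm21860 were added after values were seen. Alternatives changed the scaling, tool, filter, block, UMI minimum, spot rule, spot make-up and sections. Adding barcodes outside the mask, leaving out ventricle-rich spots and equal spot numbers (150 thalamic and 72 hypothalamic per section) were chosen after seeing the data.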

Additional observations from a re-analysis of the deposited data

How the results depend on the processing

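The single call, Gm47283, remained under each alternative except leaving out E3 aged, with log2 fold changes of -5.81 to -4.85. The count of calls was 1 with total UMIs as library size, with no condition block, with no UMI minimum, with at least 3000 UMIs per spot, with the stricter Slc17a6 rule, in thalamic spots alone, with barcodes outside the mask and without ventricle-rich spots. It was 4 with DESeq2, 12 of 20525 genes with no filter on low counts, 8 in hypothalamic spots alone (Eps8l1, Gm47283, Nos1, Nrgn, Rprml, Serpina3n, Sst and Tmem212) and 3 with equal numbers of thalamic and hypothalamic spots (Gm47283, Ifi27l2a and Sst). Leaving out 1 section, after which its partner carries no weight on genotype, gave 0 (E3 aged) to 117 calls (E4 young), and 75, 2, 13 and 8 when E3 young, E4 aged, E3 5xFAD or E4 5xFAD was the one left out. The difference between spot classes had 7 calls with no filter (Ecrg4, Enpp2, Hcrt, Mia, Otx2, Oxt and Sst) and 0 to 109 on leaving out a section. List members called numbered 3 in hypothalamic spots alone and 0 to 41 on leaving out a section. The log2 fold change of Slc17a6, -0.13, turned to 0.11 in hypothalamic spots alone and ran from -0.375 to 0.0823 on leaving out a section. The cause was not tested. Of 416 alternative values for 24 genes, 367 kept direction and side of the threshold, 45 newly passed it, 1 lost it and 3 reversed. Of 170 list medians 4 moved. The labels give no replicate numbers, and condition pairs the sections in the fit. Genes with few UMIs, such as Eps8l1 in E3, have wide counting intervals.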
